A study of Mus musculus with 8 samples.

Results

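The genes examined were the subunits of the hypoxia-inducible factor (HIF) and the proteins that sense oxygen for it, chosen by gene symbol. They were 10 of the 53700 genes in the count table: Hif1a, Epas1 and Hif3a for the alpha subunits, Arnt and Arnt2 for the beta subunits, Hif1an for factor inhibiting HIF (FIH), Egln2, Egln1 and Egln3 for the prolyl hydroxylases PHD1, PHD2 and PHD3, and Vhl for the von Hippel-Lindau protein. RNA-Seq had been performed on Lewis lung carcinoma (LLC) cells, a mouse lung carcinoma line, to ask which transcripts change when FIH is missing. WT and FIH-KO LLC cells were each grown in normoxia (21% O2) or in hypoxia (1% O2), for 16 hours and without a drug, and every one of the 4 groups was sequenced as 2 libraries. The FIH-KO cells had received Cas9 protein with a guide against exon 2 of Hif1an and then passed through single-cell dilution, so they descend from a selected clone. Whether the WT cells went through the same steps is not given in the sources used here, and the loss of FIH and a property of the clone cannot be told apart in these libraries.

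HIF is a pair of an alpha and a beta subunit. With oxygen present, the prolyl hydroxylases mark the alpha subunit, VHL recognises the mark and the subunit is degraded, while FIH hydroxylates an asparagine of the same subunit and so keeps it from the coactivators CBP and p300. Without oxygen these enzymes slow, HIF accumulates and it binds DNA at hypoxia response elements, whose core letters are ACGTG or GCGTG. Egln1 and Egln3 are textbook HIF targets, so the pathway makes more of its own brake.

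The target region of the knockout can be placed with the primers that the study listed for sequencing its edited clones. They are shown because they mark the stretch of Hif1an in which an edit was looked for.
Hif1an forward primer: TGCTGACCGACACAAACCTT
Hif1an reverse primer: GAACTCAAAGCGCAGAGCAG
In GRCm39 the forward primer matched chr19:44551739-44551758, inside exon 2, and the reverse primer matched the other strand at chr19:44552100-44552119, in the intron that follows. They bound 381 bases. Exon 2 of the 8 exons of the canonical Hif1an transcript, which holds coding sequence, lies at chr19:44551729-44551979. The deposited counts are per gene and do not show which allele a read came from.

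The promoters are shown for the 4 oxygen sensor genes whose transcripts differed between the oxygen conditions in at least 1 genotype apart from Hif1an, namely Egln1, Egln3, Vhl and Egln2. Each is the 250 bases before the transcription start, written 5′ to 3′ on the strand of the gene, from RefSeq on the GRCm38.p6 assembly. Capitals mark the core letters ACGTG and GCGTG, or CACGT and CACGC where the core lies on the other strand.
Egln1, minus strand of chr8:124949255-124949504: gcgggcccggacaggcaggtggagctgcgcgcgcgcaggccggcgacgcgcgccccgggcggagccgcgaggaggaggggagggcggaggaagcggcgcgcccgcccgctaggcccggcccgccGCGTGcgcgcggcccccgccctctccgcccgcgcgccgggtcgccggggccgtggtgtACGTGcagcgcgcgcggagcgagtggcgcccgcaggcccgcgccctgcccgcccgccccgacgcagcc
Egln3, minus strand of chr12:54203875-54204124: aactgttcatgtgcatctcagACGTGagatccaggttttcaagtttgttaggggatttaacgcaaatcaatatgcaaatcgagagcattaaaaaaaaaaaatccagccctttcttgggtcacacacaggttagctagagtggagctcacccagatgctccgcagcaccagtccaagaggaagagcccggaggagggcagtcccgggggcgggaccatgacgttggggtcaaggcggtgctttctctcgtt
Vhl, plus strand of chr6:113623744-113623993: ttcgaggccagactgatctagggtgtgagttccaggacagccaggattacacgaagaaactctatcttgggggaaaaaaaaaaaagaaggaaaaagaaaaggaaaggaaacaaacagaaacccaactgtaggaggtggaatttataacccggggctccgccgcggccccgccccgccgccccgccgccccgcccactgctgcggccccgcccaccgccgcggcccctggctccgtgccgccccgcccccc
Egln2, minus strand of chr7:27166803-27167052: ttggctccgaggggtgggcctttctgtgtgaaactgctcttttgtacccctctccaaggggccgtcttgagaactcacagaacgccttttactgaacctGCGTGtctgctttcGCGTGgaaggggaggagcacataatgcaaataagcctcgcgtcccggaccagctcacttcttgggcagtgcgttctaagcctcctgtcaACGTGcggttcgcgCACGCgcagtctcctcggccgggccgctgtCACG
The Egln1 sequence held 2 cores, which began 126 and 68 bases before the start. The Egln3 sequence held 1 core, 229 bases before the start, and the Vhl sequence held none. The Egln2 sequence held 4 whole cores, and 2 more that overlap each other ran past the start. RefSeq has a second window for Egln2, whose 250 bases (chr7:27165729-27165978) held 1 core and are not printed. In windows of 250 bases before and 50 after the start, a core was present in 6 of the 9 genes with a RefSeq entry: Hif1a, Hif3a, Arnt, Egln1, Egln2 and Egln3. The same letters were present in 43.8% of all 32851 RefSeq windows and in 62.3% of the 12464 windows of genes tested here, so a core in a promoter was common. A match of these letters is a description and not a binding site.

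Counts were normalized for library size with TMM factors and are given as CPM, counts scaled to a common library size. Libraries held between 14519731 and 18177016 counts, and in each comparison 13933 genes were tested with edgeR's quasi-likelihood test, with Benjamini-Hochberg adjustment and a threshold of 0.05 on the adjusted p. Of the 10 genes, 8 passed the filter on low counts. Epas1 and Hif3a did not. Log2 fold changes are given with the standard error (SE) of the fit, and intervals are at 95%. The labels do not say whether the 2 libraries of a group came from separate cultures, so the p values measure the spread between these libraries, which may be technical. The epithelial keratins Krt8 and Krt18 were expressed in every library (1521 to 5579 and 1693 to 3441 counts), whereas Epcam, Nkx2-1 and Sftpc were at 0 and Cdh1 had at most 1 count. The summed level of these 6 carcinoma and lung epithelium markers was 325 to 351 CPM in WT normoxia, 221 to 273 in WT hypoxia, 435 to 537 in FIH-KO normoxia and 326 to 432 in FIH-KO hypoxia. The higher sums in FIH-KO cells came mostly from Krt8. Mean Krt8 was 150 CPM in WT and 305 in FIH-KO normoxia, and 122 and 244 in hypoxia. Mean Krt18 was 187 and 181 in normoxia, and 125 and 135 in hypoxia. Of the leukocyte markers, Ptprc and Cd3e had at most 3 counts in any library, and Cd68, which other cells also transcribe, had between 41 and 115. The summed level of the 4 fibroblast markers, most of it Pdgfra (111 to 427 counts), was 28.4 to 28.9 CPM in WT normoxia, 15.5 to 24.4 in WT hypoxia, 20.7 to 24.1 in FIH-KO normoxia and 9.12 to 17.4 in FIH-KO hypoxia. That of the 3 endothelial markers, among them Cdh5 (0 to 35 counts), was 0.30 to 0.32, 1.78 to 2.41, 0.18 to 0.22 and 0.33 to 0.44 CPM in the same order. Of the fibroblast markers, Pdgfra was lower in FIH-KO than in WT cells at either oxygen level, whereas Dcn, Col1a1 and Col1a2 were higher. Mean Dcn was 1.54 CPM in WT and 3.54 in FIH-KO normoxia, and 0.80 and 1.83 in hypoxia. Col1a1 was at 0.65 and 1.29 in normoxia and 0.36 and 0.87 in hypoxia. Col1a2, with at most 10 counts, was at 0.15 and 0.34, then 0.03 and 0.35. The part of these markers in the results was not tested. In bulk RNA, fewer expressing cells and less RNA per cell cannot be told apart.

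Hif1a was nearly the whole of the alpha subunit pool. Hif1a encodes HIF-1 alpha, the subunit that most cells use for the acute response to low oxygen, and it lies at chr12:73948149-73996321 of GRCm39 (ENSMUSG00000021109.14, plus strand). Its level in the 2 libraries was 403 and 371 CPM in WT normoxia, 426 and 502 in WT hypoxia, 353 and 316 in FIH-KO normoxia, and 364 and 436 in FIH-KO hypoxia. Hypoxic libraries were higher than normoxic ones in each genotype and FIH-KO normoxia was lowest, but the FIH-KO hypoxia libraries overlapped those of WT normoxia and WT hypoxia. The hypoxia effect was a log2 fold change of 0.26 in WT cells (SE 0.13, interval -0.02 to 0.55, adjusted p = 0.145, edgeR) and 0.26 in FIH-KO cells (SE 0.13, interval -0.03 to 0.54, adjusted p = 0.20). The difference of FIH-KO from WT was -0.21 in normoxia (interval -0.49 to 0.07, adjusted p = 0.26, edgeR) and -0.21 in hypoxia (interval -0.50 to 0.07, adjusted p = 0.25). None of the 4 Hif1a differences passed the threshold, and the outermost bounds of their intervals were -0.50 and 0.55 on the log2 scale.

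Epas1, which encodes HIF-2 alpha, was close to undetected. It had 1 and 0 counts in WT normoxia, 3 and 2 in WT hypoxia, 0 and 0 in FIH-KO normoxia and 1 and 0 in FIH-KO hypoxia. Hif3a, which encodes an alpha subunit that lacks part of the activation function of the others, had 1 count in 1 library of FIH-KO hypoxia and 0 in the other 7 libraries. A count of 0 allows up to 3 counts in a library, counting error only, and no difference between groups could be measured at this depth. Scaled to exon length, Hif1a made up between 99.95% and 100% of the alpha subunit transcripts in the 4 groups.

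Of the beta subunits, Arnt was lower in FIH-KO cells and Arnt2 was higher. ARNT is the constitutive partner of HIF alpha and of other proteins of its family, and ARNT2 is a close relative best known from neurons. In GRCm39 Arnt lies at chr3:95341365-95404551 (ENSMUSG00000015522.19, plus strand) and Arnt2 at chr7:83895483-84059740 (ENSMUSG00000015709.10, minus strand). Arnt was at 73.2 and 84.0 CPM in WT normoxia, 76.7 and 81.0 in WT hypoxia, 57.5 and 57.3 in FIH-KO normoxia and 58.4 and 61.3 in FIH-KO hypoxia. Every FIH-KO library was below every WT library, whereas the normoxic and hypoxic WT libraries overlapped. The log2 fold change of FIH-KO over WT was -0.45 in normoxia (SE 0.11, adjusted p = 0.011, edgeR) and -0.40 in hypoxia (SE 0.11, adjusted p = 0.021). The call in normoxia was lost without FIH-KO normoxia replicate 1 (adjusted p = 0.052) or without WT normoxia replicate 2 (adjusted p = 0.12), and the call in hypoxia was lost in 5 of the 11 alternative analyses (largest adjusted p = 0.12). The hypoxia effect on Arnt was 0.0035 in WT cells (interval -0.24 to 0.25) and 0.06 in FIH-KO cells (interval -0.19 to 0.31).

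Arnt2 had 1 and 9 counts in WT normoxia, 5 and 4 in WT hypoxia, 101 and 94 in FIH-KO normoxia and 30 and 34 in FIH-KO hypoxia. In CPM these were 0.064 and 0.53, 0.28 and 0.27, 6.01 and 5.26, and 1.87 and 2.21. The 4 FIH-KO libraries lay above the 4 WT libraries, and within FIH-KO cells the hypoxic libraries lay below the normoxic ones. FIH-KO over WT gave a log2 fold change of 4.17 in normoxia (SE 0.50, adjusted p = 0.00013, edgeR), which ranged from 3.35 to 6.27 with 1 library left out at a time, and 2.85 in hypoxia (SE 0.56, adjusted p = 0.0028). Within FIH-KO cells, Arnt2 fell by 1.46 on the log2 scale in hypoxia (SE 0.38, adjusted p = 0.021, edgeR), a call lost without FIH-KO hypoxia replicate 1 (adjusted p = 0.091), without FIH-KO normoxia replicate 1 (adjusted p = 0.12) or without FIH-KO normoxia replicate 2 (adjusted p = 0.067). In WT cells the hypoxia difference was -0.14 with an interval of -1.78 to 1.49, and it became 1.95 without WT normoxia replicate 2. The WT libraries held between 1 and 9 Arnt2 reads. Arnt2 therefore passed the filter on low counts only through its FIH-KO libraries, where it was high. Its p values between genotypes depend on that selection and are given as a description. Per exon length, Arnt2 was still the minor form: its share of the transcripts of both genes was 0.38% in WT normoxia, 0.37% in WT hypoxia, 9.31% ± 0.78 in FIH-KO normoxia and 3.44% ± 0.28 in FIH-KO hypoxia (SD, n = 2 each).

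Hif1an, the targeted gene, was lower in FIH-KO cells but was still transcribed. The gene lies at chr19:44551286-44568723 of GRCm39 (ENSMUSG00000036450.5, plus strand), and counts from all of its exons enter its level. It was at 84.6 and 82.3 CPM in WT normoxia, 90.2 and 84.0 in WT hypoxia, 34.8 and 37.7 in FIH-KO normoxia and 45.5 and 51.0 in FIH-KO hypoxia. The FIH-KO libraries lay far below the WT libraries, and the hypoxic FIH-KO libraries lay above the normoxic ones. The Hif1an level in FIH-KO cells was 2.30-fold lower than in WT cells in normoxia and 1.81-fold lower in hypoxia (edgeR, adjusted p = 3.1e-05 and 0.00031), and these calls held in all 11 alternative analyses of each comparison. In WT cells the hypoxia effect was 0.06 on the log2 scale (interval -0.18 to 0.31, adjusted p = 0.71, edgeR). In FIH-KO cells Hif1an rose by 0.41 in hypoxia (SE 0.12, adjusted p = 0.031, edgeR). This call was lost in 4 alternatives: when the fit held only the 4 FIH-KO libraries (adjusted p = 0.094) and without FIH-KO hypoxia replicate 2 (0.11), FIH-KO normoxia replicate 1 (0.14) or FIH-KO normoxia replicate 2 (0.055). The difference between the hypoxia effects of the genotypes was 0.35 (interval -0.0023 to 0.71, unadjusted p = 0.051, adjusted p = 0.75, edgeR).

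**Figure D1:**
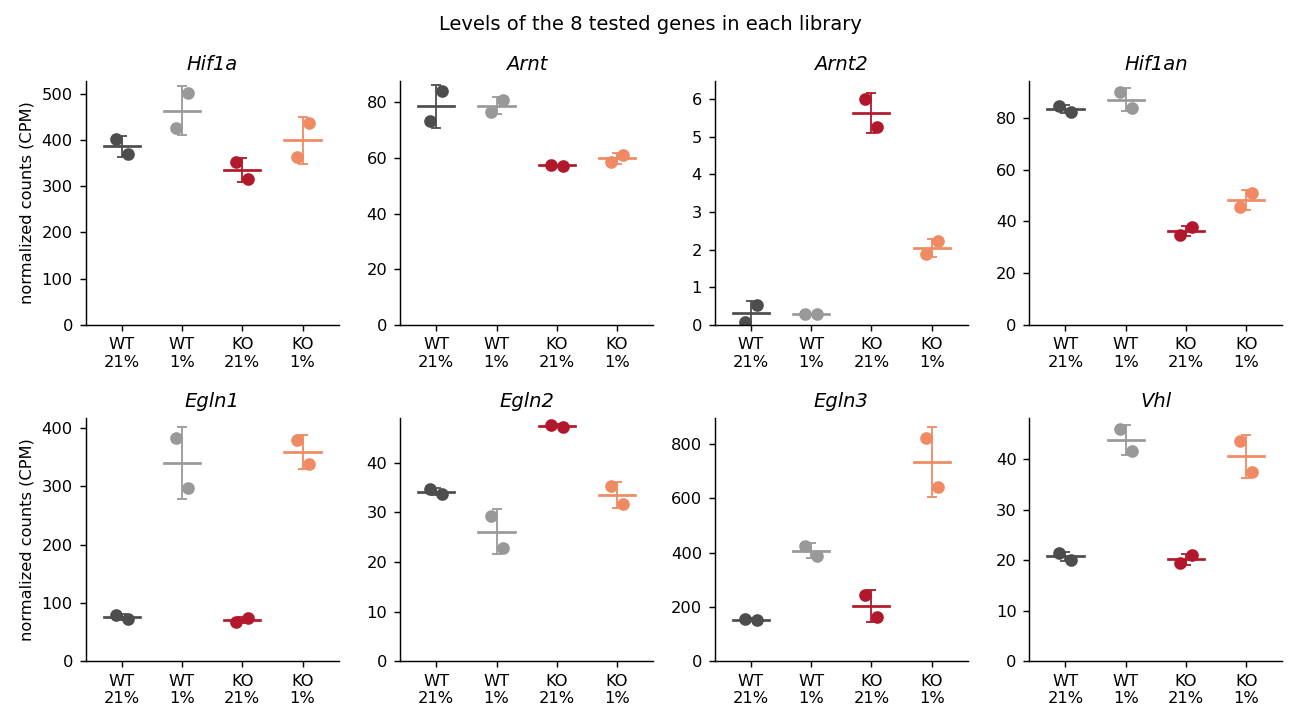
Normalized counts (CPM, linear axis from 0) of the 8 tested genes in each of the 8 libraries; points are libraries, horizontal bars are group means and error bars are the SD of 2 libraries. Arnt and Hif1an sit lower and Arnt2 higher in FIH-KO cells, and Egln1, Egln3 and Vhl sit higher at 1% O2 in either genotype.

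The chromosomes of Hif1an and Arnt had negative median differences between FIH-KO and WT cells, and those values are given beside both genes. The median log2 fold change of FIH-KO over WT was -0.38 in normoxia and -0.45 in hypoxia over the 476 tested genes of chromosome 19, where Hif1an lies, against a median over all tested genes of -0.0025 and -0.03. The 10 tested genes nearest to Hif1an had a median of -0.35 in normoxia and -0.53 in hypoxia. Hif1an was below all 10 in normoxia, whereas 2 of the 10 were lower than Hif1an in hypoxia. Arnt did not stand apart in this way: the 683 tested genes of chromosome 3 had medians of -0.36 and -0.41, the 10 genes nearest to Arnt had medians of -0.58 and -0.35, and 6 and 5 of those 10 were lower than Arnt. For Arnt2, the 10 nearest genes on chromosome 7 had medians of 0.45 in normoxia and 0.35 in hypoxia, with 1 and 2 of them above Arnt2. Of the 10, 6 were called higher and 2 lower in normoxia, and 5 and 1 in hypoxia. Over all tested genes 15.2% were called higher and 13.0% lower in normoxia, and 14.1% and 13.9% in hypoxia. The largest rises were those of Cemip (5.81 and 3.44), Gm2115 (3.22 and 3.53) and Fah (1.38 and 1.47). Within FIH-KO cells these were the 3 of the 10 called lower in hypoxia (-1.99, -1.22 and -1.33), and none was called higher. Of all tested genes, 8.0% were called lower and 8.84% higher there. In WT cells 4 of the 10 were called lower in hypoxia and none higher, beside 15.5% and 16.9% of all tested genes. Gm2115 (-1.52) and Fah (-1.41) were among those 4, and Cemip (0.38) was not called. The part of the chromosome in each result was not tested.

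**Figure D2:**
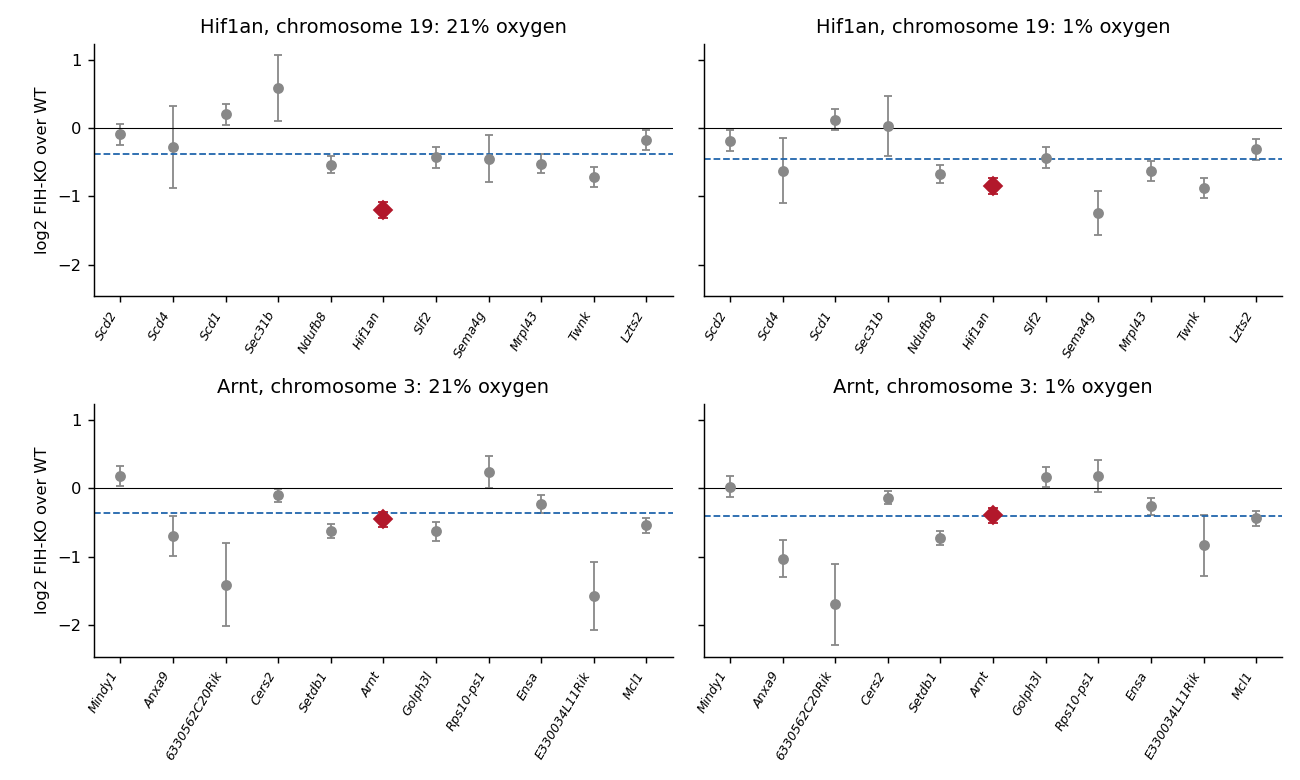
Log2 fold change of FIH-KO over WT for Hif1an and Arnt (red diamonds) and the 5 tested genes on each side of them (grey points) in chromosomal order, not to genomic scale, with error bars of 1 SE and a dashed line at the median of the chromosome. Hif1an at -1.20 is below its 10 neighbours in normoxia, and Arnt lies among its neighbours in both oxygen conditions.

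The prolyl hydroxylases split by gene. Egln1 and Egln3 rose several-fold in hypoxia in either genotype, whereas Egln2 had lower values in hypoxia. At 1% O2 the difference of FIH-KO from WT cells passed the threshold for Egln3 and not for Egln1 or Egln2.

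Egln1 encodes PHD2, the main hydroxylase that sets HIF-1 alpha stability in normoxia (ENSMUSG00000031987.7, chr8:125635308-125676865 of GRCm39, minus strand). It was at 79.7 and 72.8 CPM in WT normoxia, 383 and 297 in WT hypoxia, 67.9 and 74.5 in FIH-KO normoxia, and 379 and 338 in FIH-KO hypoxia. The hypoxic libraries lay far above the normoxic ones, and at each oxygen level the genotypes overlapped. Egln1 rose 4.46-fold in hypoxia in WT cells and 5.03-fold in FIH-KO cells (edgeR, log2 2.16 and 2.33, SE 0.14 each, adjusted p = 2.3e-06 and 1.4e-06). FIH-KO over WT was -0.10 in normoxia (interval -0.39 to 0.20, adjusted p = 0.63, edgeR) and 0.08 in hypoxia (interval -0.21 to 0.36, adjusted p = 0.71). The core letters at 126 and 68 bases before its start stand in the sequence given earlier.

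Egln3 encodes PHD3, a hydroxylase whose own transcript is among the classic targets of HIF (ENSMUSG00000035105.6, chr12:54225767-54250673 of GRCm39, minus strand). It was at 157 and 151 CPM in WT normoxia, 426 and 389 in WT hypoxia, 245 and 163 in FIH-KO normoxia, and 823 and 642 in FIH-KO hypoxia. The 4 groups did not overlap in the order WT normoxia, FIH-KO normoxia, WT hypoxia, FIH-KO hypoxia, although FIH-KO normoxia replicate 2 lay only just above the WT normoxia libraries. Egln3 rose 2.64-fold in hypoxia in WT cells and 3.59-fold in FIH-KO cells (edgeR, log2 1.40 and 1.84, SE 0.18 each, adjusted p = 0.00017 and 5.6e-05). In hypoxia Egln3 was 1.80-fold higher in FIH-KO than in WT cells (log2 0.85, SE 0.18, adjusted p = 0.0039, edgeR), and this call held in all 11 alternatives. In normoxia the log2 difference was 0.40 (interval 0.02 to 0.79, adjusted p = 0.11, edgeR); it was 0.06 without FIH-KO normoxia replicate 1 and 0.64 without FIH-KO normoxia replicate 2, where it passed the threshold (adjusted p = 0.013). It also passed with no filter beyond 1 read (0.42, adjusted p = 0.0059). The difference of the hypoxia effect between genotypes was 0.44 (interval -0.10 to 0.98, adjusted p = 0.80), so the larger rise in FIH-KO cells was not shown to differ from that in WT cells.

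Egln2 encodes PHD1, a hydroxylase of the same family (ENSMUSG00000058709.12, chr7:26853588-26866408 of GRCm39, minus strand). It was at 34.7 and 33.7 CPM in WT normoxia, 29.3 and 22.9 in WT hypoxia, 47.6 and 47.2 in FIH-KO normoxia, and 35.3 and 31.7 in FIH-KO hypoxia. Hypoxic libraries were lower than normoxic ones within each genotype, FIH-KO libraries were higher than WT libraries at each oxygen level, and the FIH-KO hypoxia libraries overlapped those of WT normoxia. In FIH-KO cells Egln2 fell by 0.50 on the log2 scale in hypoxia (SE 0.14, adjusted p = 0.031, edgeR), and in WT cells the value was -0.39 (SE 0.14, interval -0.70 to -0.07, adjusted p = 0.057). Egln2 was higher in FIH-KO than in WT cells in normoxia by 0.47 (SE 0.14, adjusted p = 0.026, edgeR), and the value in hypoxia was 0.36 (SE 0.14, interval 0.04 to 0.67, adjusted p = 0.084). These Egln2 calls sat near the threshold: the normoxia difference between genotypes lost its call without any 1 of its 4 libraries (adjusted p 0.089 to 0.17), and the fall in FIH-KO cells lost it without any 1 of its 4 libraries (adjusted p 0.055 to 0.13) and with only those 4 in the fit (0.073). The difference in WT cells passed it in 4 alternatives, with upper-quartile factors (-0.41, adjusted p = 0.049), with only its 4 libraries in the fit (-0.38, 0.042), with the replicate number as a block (-0.40, 0.048) and without WT hypoxia replicate 1 (-0.62, 0.028). The genotype difference in hypoxia passed it without WT hypoxia replicate 1 (0.58, adjusted p = 0.038).

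The sum of the 3 prolyl hydroxylase transcripts per exon length was 70.2 ± 2.35 CPM per kilobase in WT normoxia, 193 ± 17.2 in WT hypoxia, 89.9 ± 21.3 in FIH-KO normoxia and 317 ± 51.2 in FIH-KO hypoxia (SD, n = 2 each). Egln3 held most of it in every group: 81.6% in WT normoxia, 78.7% in WT hypoxia, 83.9% in FIH-KO normoxia and 85.9% in FIH-KO hypoxia. The Egln1 share was 12.1%, 19.6%, 9.17% and 12.7% in the same order, and the Egln2 share was 6.24%, 1.73%, 6.96% and 1.37%. The lengths matter for these levels. With the length of the canonical transcript in place of all annotated exons, the Egln3 share was 63.3%, 63.1%, 65.8% and 73.6%, the Egln1 share 19.1%, 31.9%, 14.4% and 22.1%, and the Egln2 share 17.7%, 5.06%, 19.8% and 4.28%. Under either length Egln3 was the most abundant of the 3 in every group, and Egln2 passed from close to or above Egln1 in normoxia (canonical length) to the smallest share in hypoxia.

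**Figure D3:**
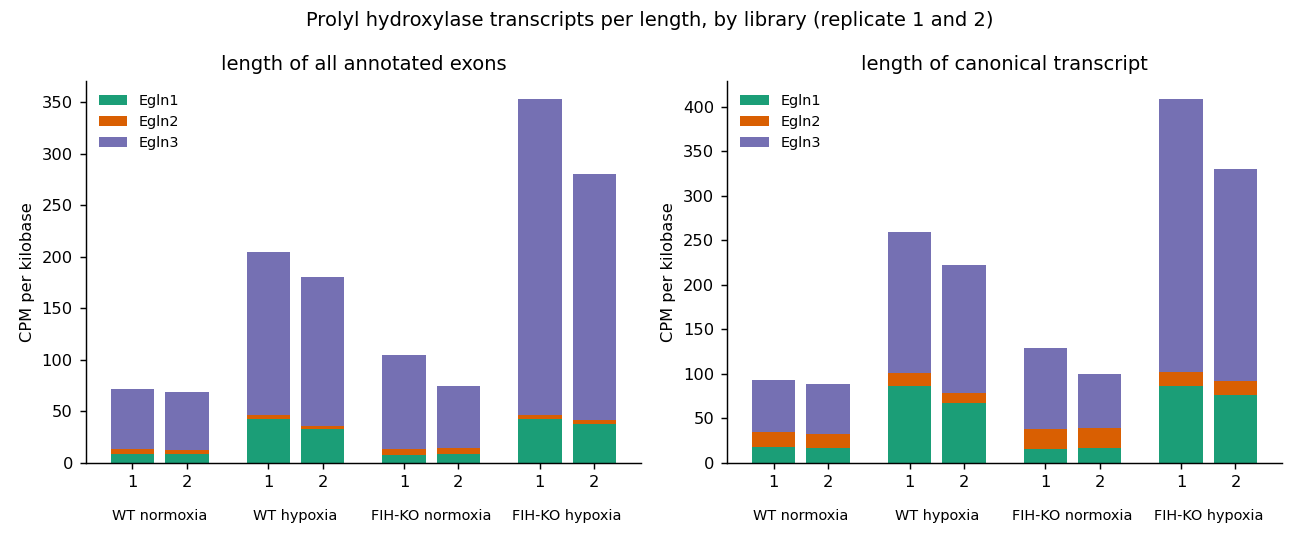
Transcript level per kilobase (CPM per kilobase) of Egln1, Egln2 and Egln3, stacked for each of the 8 libraries, with the length of all annotated exons on the left and of the canonical transcript on the right. Egln3 is the largest block in every bar, and the bars of hypoxic libraries are taller than those of normoxic libraries of the same genotype.

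Vhl encodes the protein that recognises hydroxylated HIF alpha within a ubiquitin ligase (ENSMUSG00000033933.14, chr6:113600920-113608599 of GRCm39, plus strand). Its level was 21.5 and 20.1 CPM in WT normoxia, 46.0 and 41.8 in WT hypoxia, 19.5 and 21.1 in FIH-KO normoxia, and 43.7 and 37.6 in FIH-KO hypoxia. Hypoxic libraries lay above normoxic ones without overlap, and the genotypes overlapped at each oxygen level. Vhl rose 2.11-fold in hypoxia in WT cells and 2.0-fold in FIH-KO cells (edgeR, log2 1.08 and 1.00, SE 0.14 each, adjusted p = 0.00019 and 0.00065), and both calls held in all 11 alternatives. FIH-KO over WT was -0.04 in normoxia (interval -0.35 to 0.27, adjusted p = 0.87, edgeR) and -0.11 in hypoxia (interval -0.41 to 0.18, adjusted p = 0.58). The Vhl promoter window printed earlier holds none of the core letters.

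Counted over the 8 tested genes, hypoxia raised 3 in WT cells (Egln1, Egln3 and Vhl) and lowered none, where 32.4% of all tested genes were called (16.9% higher and 15.5% lower). In FIH-KO cells 6 were called, with Egln1, Egln3, Vhl and Hif1an higher and Egln2 and Arnt2 lower, where 16.8% of all tested genes were called (8.84% higher and 8.0% lower). For FIH-KO over WT in normoxia 4 were called, with Hif1an and Arnt lower and Arnt2 and Egln2 higher, beside 28.2% of all tested genes (15.2% higher and 13.0% lower). In hypoxia 4 were called, with Hif1an and Arnt lower and Arnt2 and Egln3 higher, beside 28.0% (14.1% higher and 13.9% lower). Arnt2 is counted at both oxygen levels although it passed the filter only through its FIH-KO libraries. No difference of the hypoxia effect between genotypes passed edgeR's threshold for any of the 8 genes, where 0.0% of all 13933 tested genes did. Over all genes that comparison had 925 with an unadjusted p under 0.05 in edgeR, and DESeq2 called 35, none of them among the 8, with 705 at an unadjusted p under 0.05. Comparisons that start from the same libraries, such as FIH-KO over WT in normoxia and hypoxia over normoxia, share their error and are not independent.

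**Figure D4:**
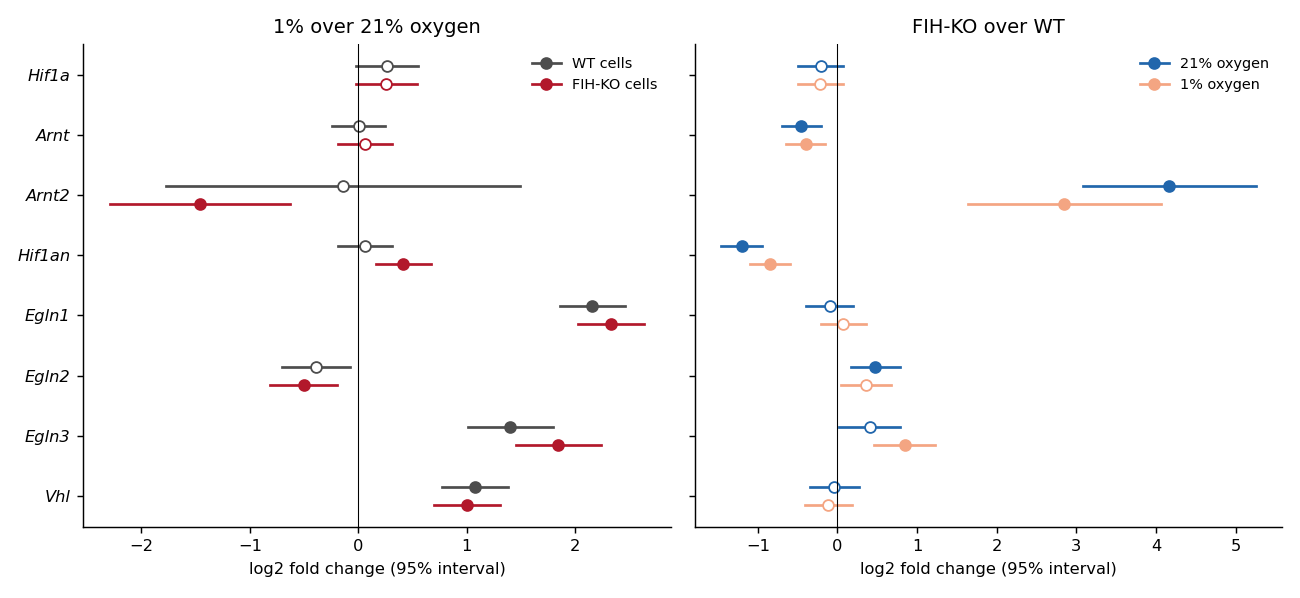
Log2 fold changes of the 8 tested genes with 95% intervals, for hypoxia over normoxia in each genotype on the left and for FIH-KO over WT at each oxygen level on the right; filled points had an adjusted p under 0.05 and open points did not. Egln1, Egln3 and Vhl lie to the right of 0 in either genotype on the left, and Hif1an and Arnt lie to the left of 0 at either oxygen level on the right.

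Per exon length, the order of the genes differed between groups. In WT normoxia Egln3 (57.3 ± 1.71 CPM per kilobase) and Hif1a (46.4 ± 2.68) were far above Egln1 (8.51 ± 0.54), Arnt (8.41 ± 0.82), Hif1an (7.35 ± 0.14), Vhl (4.99 ± 0.22) and Egln2 (4.38 ± 0.10), and Egln1 and Arnt did not differ beyond their spread (SD, n = 2 each). In FIH-KO hypoxia the order was Egln3 (273 ± 47.6), Hif1a (48.0 ± 6.13), Egln1 (40.0 ± 3.24), Vhl (9.73 ± 1.03), Arnt (6.40 ± 0.22), Egln2 (4.30 ± 0.33) and Hif1an (4.25 ± 0.34), and the last pair did not differ beyond its spread. Hif1an thus stood above Vhl and Egln2 in WT normoxia and, with Egln2, at the bottom of these 7 genes in FIH-KO hypoxia. With canonical lengths it stood above Vhl alone of the 7 in WT normoxia and was the lowest of them in FIH-KO hypoxia (7.77 CPM per kilobase). Other places also depended on the length. With canonical lengths Egln3 and Hif1a were at 57.3 and 56.5 in WT normoxia. In FIH-KO hypoxia Egln1 (81.1) then stood above Hif1a (58.4), and Egln2 (15.7) above Vhl (14.5) and Arnt (12.7). Arnt2 lay below all 7 in both groups. Its level was 0.033 ± 0.037 CPM per kilobase of exon in the former and 0.23 ± 0.027 in the latter.

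The response of the pathway's targets was read from a list of 41 HIF target genes that left out Egln1 and Egln3, of which 40 were tested. In hypoxia 37 of the 40 rose in WT cells and none fell, with a median log2 fold change of 1.77 against -0.0011 over all tested genes, where 16.9% of all tested genes rose and 15.5% fell, and the 3 that did not pass the threshold were Slc2a3 (0.44), Pfkfb4 (0.26) and Aldoc (1.01). In FIH-KO cells 35 of the 40 rose and none fell, beside 8.84% and 8.0% of all tested genes, with a median of 1.88 against -0.03. The 5 that did not pass there were Car9 (-0.22, adjusted p = 0.88, edgeR), Slc2a3 (0.23), Pfkfb4 (0.28), Angptl4 (0.50) and Aldoc (1.33). The values of Egln1 (2.16 and 2.33) were above these medians, those of Egln3 (1.40 and 1.84) below them, and those of Vhl (1.08 and 1.00) further below. The genes with the largest rises in WT cells were Car9 (4.15), which encodes a carbonic anhydrase, Ero1a (3.99), an oxidase of the endoplasmic reticulum, Ndrg1 (3.97) and Stc2 (3.88). In FIH-KO cells they were Slc16a3 (5.58), a lactate exporter, Ero1a (4.66), Ankrd37 (4.13) and Stc2 (3.83). The Stc2 value rested on few normoxic reads, with a count of 0 in FIH-KO normoxia replicate 2: it was 2.85 without that library and 8.16 without FIH-KO normoxia replicate 1. The Car9 rise in WT cells also rested on few reads, with means of 0.12 CPM in WT normoxia and 2.3 in WT hypoxia. Vegfa, the endothelial growth factor, rose by 3.08 in WT cells (SE 0.17, adjusted p = 2.0e-06, edgeR) and by 1.97 in FIH-KO cells (SE 0.16, adjusted p = 1.3e-05).

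Between genotypes the target list went in no single direction. In normoxia 5 of the 40 were higher in FIH-KO cells and 11 lower (median -0.16), beside 15.2% and 13.0% of all tested genes, with Ddit4 (1.55), Vegfa (1.20), Ndrg1 (0.70) and Hk1 (0.56) as the largest rises and Slc16a3 (-2.44), Aldoc (-2.41), Pgam1 (-1.03) and Slc2a3 (-0.95) as the largest falls. The Ndrg1 call was lost without any 1 of its 4 libraries (adjusted p 0.096 to 0.21), the Hk1 call without FIH-KO normoxia replicate 1 (0.098) or WT normoxia replicate 1 (0.13), the Aldoc call without FIH-KO normoxia replicate 2 (0.078) or WT normoxia replicate 1 (0.072), and the Slc2a3 call without WT normoxia replicate 1 (0.0503). The count of 16 was 6 without WT normoxia replicate 1. In hypoxia 8 were higher and 6 lower (median 0.12), beside 14.1% and 13.9% of all tested genes, with Ankrd37 (1.36), Kdm4b (0.75), Gpi1 (0.74) and P4ha1 (0.66) higher and Car9 (-3.33), Stc2 (-2.28), Aldoc (-2.10) and Slc2a3 (-1.17) lower. The Car9 and Aldoc values rested on few reads. Means in WT and FIH-KO hypoxia were 2.3 and 0.22 CPM for Car9 and 1.92 and 0.45 for Aldoc. The Aldoc value in normoxia rested on few reads too, with means of 0.96 CPM in WT and 0.18 in FIH-KO cells. The Aldoc call in hypoxia was lost without WT hypoxia replicate 1 (adjusted p = 0.095). Vegfa had a value of 0.09 there (adjusted p = 0.69, edgeR). The rise of Egln3 in FIH-KO hypoxia (0.85) exceeded the value of every list gene but Ankrd37, and the Egln1 value of 0.08 was near its median. With all libraries, TMM factors and the filter, edgeR called no member of the list for a difference in hypoxia effect between genotypes. Among the alternatives, edgeR called 13 without the filter, 2 with the replicate block and 4 without FIH-KO hypoxia replicate 1, and DESeq2 called 7.

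**Figure D5:**
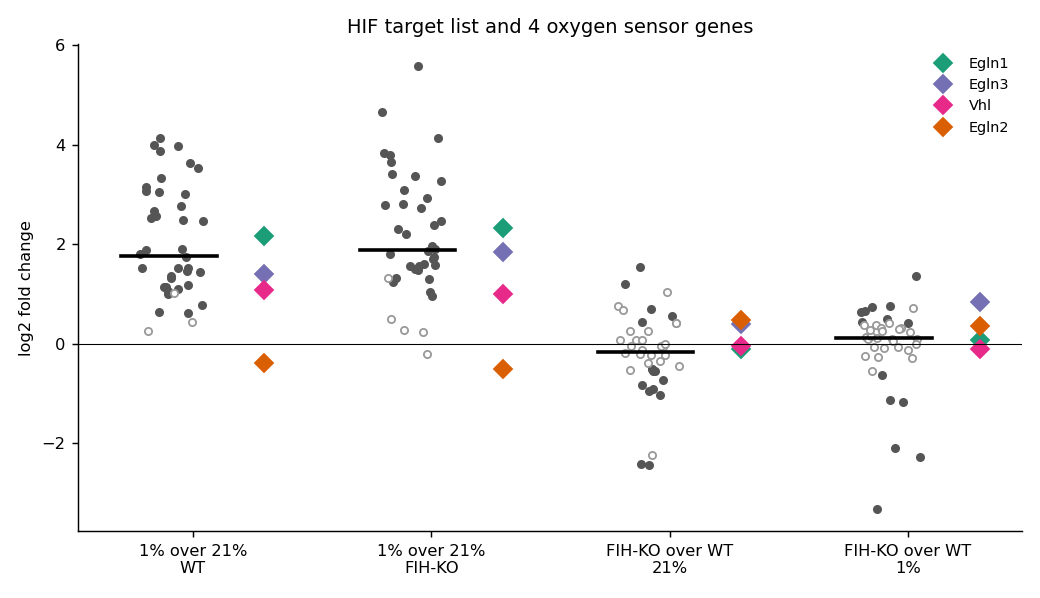
Log2 fold changes of the 40 tested HIF target genes (circles, filled where the adjusted p was under 0.05, black bars at the median) in the 4 comparisons, with Egln1, Egln3, Vhl and Egln2 as coloured diamonds. Nearly all circles lie above 0 for 1% over 21% O2, with medians of 1.77 and 1.88, and they lie on both sides of 0 for FIH-KO over WT.

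The proteins that act on HIF and its sensors were read from a second list of 28 genes, of which 22 were tested. In WT hypoxia 3 rose and 4 fell: Siah2 (1.26), a ubiquitin ligase that acts on prolyl hydroxylases, Crebbp (0.80), the coactivator CBP that FIH keeps from HIF, and Cited2 (0.61), a competitor for that coactivator, rose, and Hsp90ab1 (-0.57), Rbx1 (-0.57), Cops5 (-0.38) and Nedd8 (-0.33) fell. These 7 of 22 stood beside 32.4% of all tested genes. The Cops5 and Nedd8 calls were lost without any 1 of their 4 libraries (adjusted p 0.054 to 0.13), the Cited2 call without WT hypoxia replicate 1 (0.37 on the log2 scale, adjusted p = 0.11) or WT normoxia replicate 2 (0.090), and the Hsp90ab1 call without WT hypoxia replicate 2 (0.060). In FIH-KO cells Siah2 alone of the 22 passed the threshold (0.96, SE 0.20, adjusted p = 0.0064, edgeR), where 16.8% of all tested genes did. For FIH-KO over WT in normoxia 5 were higher and 4 lower, with Ahr (0.99), another partner of ARNT, Usp20 (0.73), Crebbp (0.61) and Os9 (0.60) as the largest rises and Hsp90aa1 (-0.53), Eloc (-0.51), Cops5 (-0.47) and Nedd8 (-0.34) the falls, and 28.2% of all tested genes were called there. Without WT normoxia replicate 1 the calls of Crebbp (adjusted p = 0.055), Hsp90aa1 (0.099), Cops5 (0.068) and Nedd8 (0.13) were lost, Hsp90aa1 also lost its call without FIH-KO normoxia replicate 1 (0.11), and Nedd8 lost it without any other 1 of the 4 libraries (0.053 to 0.11). In hypoxia 4 were higher and 2 lower: Ahr (0.86), Usp20 (0.66), Os9 (0.61) and Stub1 (0.42) against Siah2 (-0.73) and Eloc (-0.35), the elongin C of the VHL ligase, where 28.0% of all tested genes were called. The Eloc call was lost in 5 of 11 alternatives, among them without FIH-KO hypoxia replicate 2, WT hypoxia replicate 1 or WT hypoxia replicate 2 (adjusted p 0.11 to 0.13). The Siah2 call was lost without FIH-KO hypoxia replicate 2 or WT hypoxia replicate 1 (larger adjusted p = 0.16), and the Stub1 call without FIH-KO hypoxia replicate 2 (0.097) or WT hypoxia replicate 2 (0.15). The medians of the 22 genes were 0.0073, -0.0006, -0.09 and -0.02 for FIH-KO over WT in normoxia and hypoxia and for hypoxia in WT and FIH-KO cells, close to those of all tested genes.

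Genes with a pattern like that of 3 of the members were sought among the 10569 genes that averaged 50 or more counts, by the root mean square difference of centred log2 CPM over the 8 libraries. Nearest to Egln1 were Pcyt1b (0.14), Hilpda (0.19) and Gys1 (0.20). Nearest to Egln3 were P4ha1 (0.18), Ifi211 (0.18) and Sqle (0.18), and P4ha1 went from 131 and 155 CPM in WT and FIH-KO normoxia to 328 and 518 in hypoxia. Nearest to Hif1an were Tgfbr1 (0.10) on chromosome 4 and Gstcd (0.11) and Rpf1 (0.12), both on chromosome 3. These are descriptions over 8 libraries that share groups.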

How the data were processed

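RNA from WT and FIH-KO LLC cells was sequenced from stranded mRNA libraries. The deposited values are raw counts per gene, which the authors obtained by aligning reads to GRCm39 with STAR and counting them with HTSeq. The submitters' processing notes name GRCm38 too, and the annotation release is not given in the sources used here. All 8 library columns were used.

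The tests used edgeR 4.0.16 in R 4.3.3, with the filter filterByExpr, TMM factors and a quasi-likelihood fit of all 8 libraries in which every group had its own mean. P values were adjusted by Benjamini and Hochberg's method over 13933 genes. The biological coefficient of variation common to all genes was 11.7%. The procedure was checked on simulated data in which every gene and group had the same spread. That check does not cover genes or groups of unequal spread. Positions and exon lengths came from GENCODE for GRCm39 (97.97% of identifiers found) and promoters from RefSeq on GRCm38.p6. Alternatives were RLE and upper-quartile factors, no filter beyond 1 read, a minimum of 10 counts in each library, a fit of the 4 libraries compared, the replicate number as a block, DESeq2 1.42.0 and each library left out. Plots used matplotlib 3.10.9.

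Named were all 10 genes, from each list the called genes with the 4 largest changes per direction and comparison with Vegfa always, and the 3 genes nearest in pattern to Hif1an, Egln1 and Egln3. The genes and lists were chosen with earlier results of these data known. Of the marker genes in the cell type lists, 1 is not reported here. Intervals and the limit of 3 counts cover counting error or the fitted spread only.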

Additional observations from a re-analysis of the deposited data

How the results depend on the processing

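The called differences of Hif1an and Arnt2 between genotypes, of Egln3 in hypoxia, and of Egln1, Egln3 and Vhl between oxygen levels kept their direction and stayed past the threshold under every alternative in which they were tested. Arnt2 was not tested in the alternative with at least 10 counts in every library, and elsewhere it passed the filter only through its FIH-KO libraries. With 1 library left out at a time, the number of the 8 genes called ranged from 2 to 4 for FIH-KO over WT in normoxia (2 without FIH-KO normoxia replicate 1 or WT normoxia replicate 2, 4 with all libraries) and from 3 to 4 for hypoxia in FIH-KO cells (3 without FIH-KO normoxia replicate 1 or 2, 6 with all libraries). The called genes of the regulator list ranged from 4 to 8 for FIH-KO over WT in normoxia (4 without WT normoxia replicate 1, 9 with all), from 3 to 8 in hypoxia (3 without FIH-KO hypoxia replicate 2, 6 with all), from 4 to 5 for hypoxia in WT cells (4 without WT hypoxia replicate 1, WT hypoxia replicate 2 or WT normoxia replicate 2, 7 with all) and from 1 to 3 for hypoxia in FIH-KO cells (2 without FIH-KO hypoxia replicate 1, 3 without replicate 2, 1 with all). Those of the target list ranged from 6 to 14 for FIH-KO over WT in normoxia (6 without WT normoxia replicate 1, 16 with all) and from 0 to 4 for the difference of the hypoxia effect (4 without FIH-KO hypoxia replicate 1). The regulator count for hypoxia in FIH-KO cells was 2 with RLE factors, without the filter, with the replicate block and with DESeq2. Without the filter the target list had 24 calls for FIH-KO over WT in normoxia (16 with it) and 22 in hypoxia (14 with it). It had 13 for the difference of the hypoxia effect, where DESeq2 had 7. The normoxia count was 20 with only the 4 libraries compared, with the replicate block and with DESeq2. With upper-quartile factors and with at least 10 counts in every library it was 15. The cause of these changes was not tested.

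With the replicate number as a block the target list had 2 calls for the difference of the hypoxia effect (0 without it), and the number of the 8 genes called was 4, 4, 4 and 6 for FIH-KO over WT in normoxia and hypoxia and for hypoxia in WT and FIH-KO cells, against 4, 4, 3 and 6. The deviations of equally numbered libraries had correlations of -0.0029, 0.19, 0.079 and 0.11 in these comparisons, and nothing in the labels ties the numbers to a shared culture or day.

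Canonical lengths gave Arnt2 shares of 0.25% (WT hypoxia), 6.58% (FIH-KO normoxia) and 2.39% (FIH-KO hypoxia). In the order WT normoxia, WT hypoxia, FIH-KO normoxia, FIH-KO hypoxia, they gave Egln3 shares of 63.3%, 63.1%, 65.8% and 73.6%, Egln1 shares of 19.1%, 31.9%, 14.4% and 22.1%, and Egln2 shares of 17.7%, 5.06%, 19.8% and 4.28%. Over 20 neighbours in place of 10, the median beside Arnt in normoxia was -0.36 against -0.58.

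Differences near 0 and not called changed sign. Hypoxia over normoxia in WT cells gave Arnt -0.0037 with RLE factors, -0.018 with upper-quartile factors, -0.011 without the filter and -0.0038 with DESeq2, and from -0.136 to 0.0678 with 1 library left out. It gave Hif1an from -0.0263 to 0.108 and Arnt2 from -0.969 to 1.95. FIH-KO over WT in hypoxia gave Egln1 from -0.0926 to 0.305 and Vegfa, at 0.09 with all libraries, -0.15 and -0.03 without FIH-KO hypoxia replicate 1 and WT hypoxia replicate 2. The difference of the hypoxia effect for Hif1a, -0.0043 with all libraries, was 0.0044 with RLE factors and with DESeq2, 0.0259 with upper-quartile factors, 0.0162 without the filter and 0.0267 with at least 10 counts in every library, and ranged from -0.138 to 0.187 with 1 library left out. For Egln2 and Vhl it ranged from -0.274 to 0.136 and from -0.139 to 0.0553.

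With 2 libraries a group, an exact permutation test within 1 comparison cannot go below p = 0.33, so calls rest on the spread pooled over all genes and groups. The groups were not equally spread. The chi-square per degree of freedom between the 2 libraries was 5.66 in WT normoxia, 10.4 in WT hypoxia, 14.9 in FIH-KO normoxia and 23.3 in FIH-KO hypoxia. The pooled spread is therefore not that of each group. Depth limits Epas1, Hif3a and the WT values of Arnt2.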
